A study of Mus musculus with 24 samples.

Results

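The genes described here encode the 2 nonapeptide hormones of the hypothalamus and their main brain receptors: Avp (arginine vasopressin), Oxt (oxytocin), Avpr1a (the V1a vasopressin receptor) and Oxtr (the oxytocin receptor). They were chosen by symbol, as the probe sets that the array annotation assigns to exactly 1 of these symbols, and each gene had 1 such probe set. They are 4 of the 19937 genes tested. Expression was measured on 24 Affymetrix Mouse Gene 1.0 ST arrays, each hybridised with RNA of the whole hypothalamus of 1 male mouse. There were 6 mice in each of 4 groups, namely hypertensive BPH/2J at 26 weeks of age, normotensive BPN/3J at 26 weeks, BPH/2J at 6 weeks and BPN/3J at 6 weeks. Both are inbred strains of mice, no gene was deleted and no drug was given, housing was standard, and the tissue was taken at the daily peak of blood pressure. The labels call the normotensive strain BPN/3J, and the design text once writes BPN/2J. The comparisons ask whether the peptide and receptor genes differed between the strains at the young age and at the adult age, and between the ages within a strain.

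Vasopressin and oxytocin are made by magnocellular neurons of the paraventricular and supraoptic nuclei, which carry them to the posterior pituitary, and vasopressin is also made by neurons of the suprachiasmatic nucleus, the circadian clock. Vasopressin acts on the V2 receptor of the kidney to retain water and on the V1a receptor of vessels to constrict them. In the brain, the V1a receptor and the oxytocin receptor couple to Gq and phospholipase C. Each peptide is cut from a precursor together with a neurophysin in the dense-core granule.

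Avp and Oxt lie beside each other on mouse chromosome 2 on opposite strands, and in the RefSeq gene order of GRCm38.p6 no tested gene lay between them. Their start regions are printed because the values of both genes moved together from mouse to mouse, as described further on. The sequences are from RefSeq, build GRCm38.p6, and hold the 250 bases before each start. Capitals mark matches to the E-box CACGTG, matches to the nuclear receptor core TGACC or its reverse complement GGTCA, and the longest run of bases that both windows share, CAGACATAAA. The Avp window is chr2:130582589-130582838 on the minus strand and the Oxt window is chr2:130575919-130576168 on the plus strand.
Avp: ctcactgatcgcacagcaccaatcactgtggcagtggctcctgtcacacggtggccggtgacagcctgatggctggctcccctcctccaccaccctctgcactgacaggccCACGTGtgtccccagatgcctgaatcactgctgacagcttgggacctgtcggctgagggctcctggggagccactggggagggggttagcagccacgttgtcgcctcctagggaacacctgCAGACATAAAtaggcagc
Oxt: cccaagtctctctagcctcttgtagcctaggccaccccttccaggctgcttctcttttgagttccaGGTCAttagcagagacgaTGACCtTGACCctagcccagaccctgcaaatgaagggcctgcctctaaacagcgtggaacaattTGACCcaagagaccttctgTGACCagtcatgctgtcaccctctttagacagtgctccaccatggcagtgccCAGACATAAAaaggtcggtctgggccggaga
The shared run of 10 bases began 18 bases before the Avp start and 31 bases before the Oxt start, and 13 of 32851 RefSeq promoter windows, 0.0396%, held it on the gene's strand. Those windows include the Avp and Oxt windows, and the run was picked because both hold it. Its share therefore cannot say whether this pair is unusual, and the longest runs shared by other pairs of windows were not measured. Motifs were searched on both strands in windows of 300 bases that also take in 50 bases after the start. The E-box was found once upstream of Avp, 139 bases before the start, and in 0 copies upstream of Oxt, and 7.15% of all windows held it. TGACC or GGTCA was found 5 times upstream of Oxt, between 184 and 83 bases before the start, and 0 times upstream of Avp, and 40.5% of all windows held it. The letters TGACG or CGTCA, the core of a cyclic AMP response element, were in neither window and in 20.8% of all windows. No match overlapped another in the 2 windows shown. For the receptors, the Oxtr window had 1 E-box and 2 nuclear receptor cores, and the Avpr1a window had 1 copy of TGACG or CGTCA. These are matches of letters, and no binding was measured.

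All values are on the log2 scale that the authors deposited, and a level of one gene is not set against a level of another, because probe sets differ in how brightly they hybridise. As a floor for dim signal, the median of the probe sets without a gene symbol was 4.60 to 5.25 on the 24 arrays. Avp, Oxt, Avpr1a and Oxtr were above that median on all 24 arrays. The 90th percentile of the same probe sets was 8.65 to 8.82. Avp exceeded it on 10 arrays, Oxt on 16, and Avpr1a and Oxtr on 0. The labelled tissue was checked with 14 measured defining genes of the hypothalamus, all of them above the same median on every array, and their mean was between 6.98 and 8.45 on single arrays. All 17 thalamus, 6 striatum and 11 oligodendrocyte genes measured were also above it on every array. The check thus shows hypothalamus genes above the median of unnamed probe sets, and it cannot tell how much neighbouring tissue was present.

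Avp, the vasopressin gene, had a group mean in 26-week BPH/2J that was 2.26-fold that of 26-week BPN/3J, with a wide spread between mice. In 26-week BPH/2J the lowest, median and highest arrays were at 7.22, 8.95 and 9.28, and in 26-week BPN/3J at 6.64, 7.30 and 8.56. Of the BPH/2J mice, 5 of 6 lay between 8.72 and 9.28, above every BPN/3J mouse, and replicate 3 at 7.22 lay inside the BPN/3J range. In 6-week BPH/2J the values were 7.89, 8.85 and 10.08, and in 6-week BPN/3J they were 7.24, 8.15 and 9.30, so the groups overlapped over most of their range. The group means were 8.70 ± 0.75 in 26-week BPH/2J, 7.52 ± 0.83 in 26-week BPN/3J, 9.01 ± 0.84 in 6-week BPH/2J and 8.30 ± 0.84 in 6-week BPN/3J (SD, n = 6 each). Young BPH/2J had the highest mean and adult BPN/3J the lowest, and each step between neighbours in the order of means was smaller than the SDs of both.

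The strain difference in Avp, BPH/2J minus BPN/3J, was 1.17 ± 0.42 at 26 weeks (SE, limma adjusted p = 0.174, unadjusted p = 0.00962, exact permutation p = 0.026, two-sided). It was 0.70 ± 0.42 at 6 weeks (limma adjusted p = 0.416, exact permutation p = 0.177). Averaged over both ages the difference was 0.94 ± 0.30, or 1.92-fold, with a 95% interval of 0.33 to 1.55. That average missed the threshold of 0.05 narrowly (limma adjusted p = 0.0506, exact permutation p = 0.0112). Among all genes tested, 1.32% were called higher and 1.34% lower at 26 weeks, 2.99% higher and 4.42% lower at 6 weeks, and 3.66% higher and 4.14% lower for the average, and 0 of the 4 peptide and receptor genes were called in any of these 3 comparisons. At an unadjusted p under 0.05, Avp and Oxt passed at 26 weeks, Avpr1a at 6 weeks and Avp for the average. In whole hypothalamus, fewer cells of a type and less RNA per cell cannot be told apart.

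For the 26-week difference in Avp, 1 array decided the side of the threshold. Without 26-week BPH/2J replicate 3 the 26-week difference in Avp was 1.47 and passed (limma adjusted p = 0.0475), and on leaving out any other 26-week array it did not pass. That array had the highest mean of 6 measured striatum genes of its group, 9.18 against a group median of 7.80, and the highest mean of 11 choroid plexus and ependymal genes, 7.96 against a group median of 6.40. Its mean of cortex and hippocampus genes was also the highest of its group, 7.19 against a group median of 6.62. The striatum and choroid plexus means were 8.22 and 7.42 in 26-week BPH/2J replicate 4, with Avp at 9.08. They were 8.32 and 7.93 in 26-week BPN/3J replicate 4, with Avp at 7.60, and 8.01 and 8.34 in 26-week BPN/3J replicate 2, with Avp at 8.56. The part of neighbouring tissue in the Avp values was not tested. The average over both ages passed in 6 of the 24 fits that left out 1 array, with adjusted p between 0.0135 and 0.103.

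**Figure D1:**
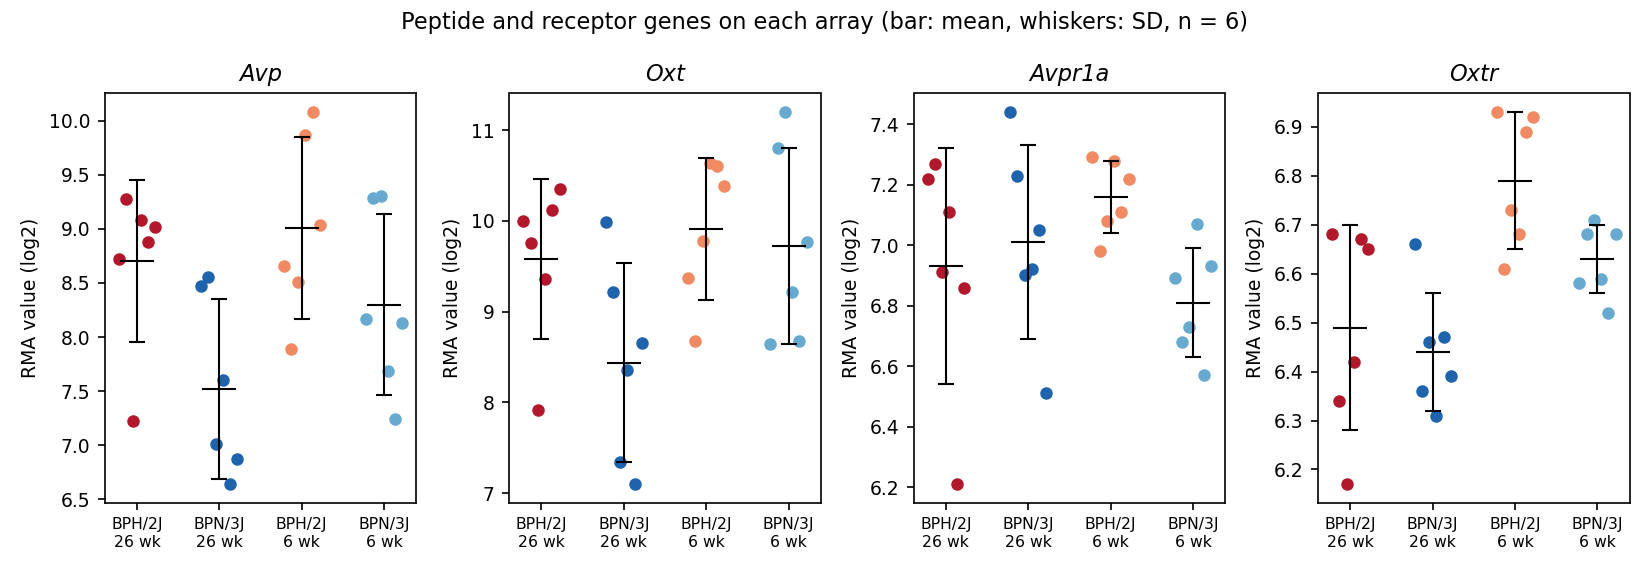
RMA log2 values of Avp, Oxt, Avpr1a and Oxtr, 1 point per mouse, with the mean as a bar and the SD as whiskers (n = 6 per group; each panel has its own axis). In 26-week BPH/2J, 1 mouse at 7.22 lies below the other 5 for Avp, and the BPH/2J and BPN/3J points overlap in every panel.

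Oxt, the oxytocin gene, had nearly the same strain difference as Avp at 26 weeks and a small one at 6 weeks, and none passed the test. In 26-week BPH/2J the lowest, median and highest arrays were at 7.92, 9.88 and 10.35, and in 26-week BPN/3J at 7.10, 8.51 and 9.99. In 6-week BPH/2J they were at 8.68, 10.09 and 10.64, and in 6-week BPN/3J at 8.64, 9.50 and 11.20. The group ranges overlapped at both ages, and the highest array of all was a 6-week BPN/3J mouse. The strain difference was 1.14 ± 0.50 at 26 weeks (SE, limma adjusted p = 0.322, exact permutation p = 0.0779) and 0.19 ± 0.50 at 6 weeks (limma adjusted p = 0.911, exact permutation p = 0.732). The 6-week value had an interval of -0.84 to 1.22, which includes the 26-week value. Averaged over both ages it was 0.67 ± 0.35 (limma adjusted p = 0.324). The mean levels were 9.58 ± 0.88 in 26-week BPH/2J, 8.44 ± 1.10 in 26-week BPN/3J, 9.91 ± 0.78 in 6-week BPH/2J and 9.72 ± 1.08 in 6-week BPN/3J (SD, n = 6 each). Adult BPN/3J had the lowest mean, and the other 3 groups lay within 0.33 of each other, less than their SDs.

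The deviations of same-numbered 26-week mice of the 2 strains from their group means correlated over genes in all 6 pairs (r of 0.13 to 0.44), although the labels do not say what a number marks. However, 26-week BPH/2J replicates 3, 4 and 6 were most like BPN/3J replicates 4, 2 and 5. Same-numbered BPH/2J mice of 26 and 6 weeks also had r of 0.01 to 0.41, so a pairing by number is not established. Within the same-numbered 26-week pairs, BPH/2J minus BPN/3J in Avp was 0.25, 0.72, 0.21, 1.48, 2.24 and 2.15 for replicates 1 to 6. For Oxt it was 0.01, 0.54, 0.58, 1.00, 3.02 and 1.69. Both peptide genes were thus higher in the BPH/2J mouse of 6 of 6 pairs, including pair 3, where Avp was at 7.22 in BPH/2J and 7.01 in BPN/3J. The exact sign-flip test over the pairs, added after the data were seen, gave p = 0.0312 for each of the 2 genes, the smallest that 6 pairs can give. It takes the pairing by number as given, and the 2 genes move together, so these are not 2 independent results. Without pairing, the exact permutation p was 0.026 for Avp and 0.0779 for Oxt. The mean paired difference was 1.17 ± 0.37 for Avp and 1.14 ± 0.44 for Oxt (SE, n = 6 pairs), and in the fit over all genes with the replicate number as a block neither passed (limma adjusted p = 0.199 and 0.232). For Avpr1a and Oxtr 4 of 6 pairs were higher in BPH/2J (exact p = 0.812 and 0.594).

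Both peptide genes had an unusually large spread between mice of the same group. The SD within groups, pooled over the 4 groups, was 0.82 for Avp and 0.97 for Oxt, and each was larger than that of 99.9% of the genes tested. The highest mouse of a group exceeded the lowest by 3.79-fold to 4.55-fold for Avp and by 3.87-fold to 7.42-fold for Oxt. The receptors varied less, with an SD of 0.27 for Avpr1a, larger than that of 93.9% of genes, and 0.15 for Oxtr, larger than that of 40.1%.

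The 2 peptide genes varied together. Over the 24 arrays, as a description, Avp and Oxt had Pearson's r = 0.886 and Spearman's rho = 0.876, and r was 0.873 without the 2 arrays farthest from the median of Avp. With each group's mean removed, r was 0.872 and rho 0.848. Within groups of 6 mice r was 0.858 in 26-week BPH/2J, 0.847 in 26-week BPN/3J, 0.918 in 6-week BPH/2J and 0.900 in 6-week BPN/3J. The rank correlation was only 0.143 in 26-week BPH/2J, where replicate 3 was lowest for both genes, against 0.771, 0.886 and 0.657 in 26-week BPN/3J, 6-week BPH/2J and 6-week BPN/3J. Both values of a pair come from the same array and the same dissection.

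Because the genes move together, their difference within an array was also taken, which removes a change of the same log2 size in both. Oxt varied more than Avp (pooled SD 0.97 against 0.82), so part of what they share can remain in it. Avp minus Oxt averaged -0.88 ± 0.45 in 26-week BPH/2J and -0.92 ± 0.60 in 26-week BPN/3J, and -0.90 ± 0.33 in 6-week BPH/2J and -1.42 ± 0.49 in 6-week BPN/3J (SD, n = 6 each). The size of these values includes the brightness of the 2 probe sets, and only their differences between groups can be read. The strain difference of this quantity was 0.04 ± 0.31 at 26 weeks (SE, exact permutation p = 0.92) and 0.51 ± 0.24 at 6 weeks (exact permutation p = 0.0649). At 6 weeks the 6 BPH/2J mice lay between -1.36 and -0.53, against -1.90 to -1.44 in 5 of the 6 BPN/3J mice and -0.47 in the other one. This quantity was added after the data were seen.

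**Figure D2:**
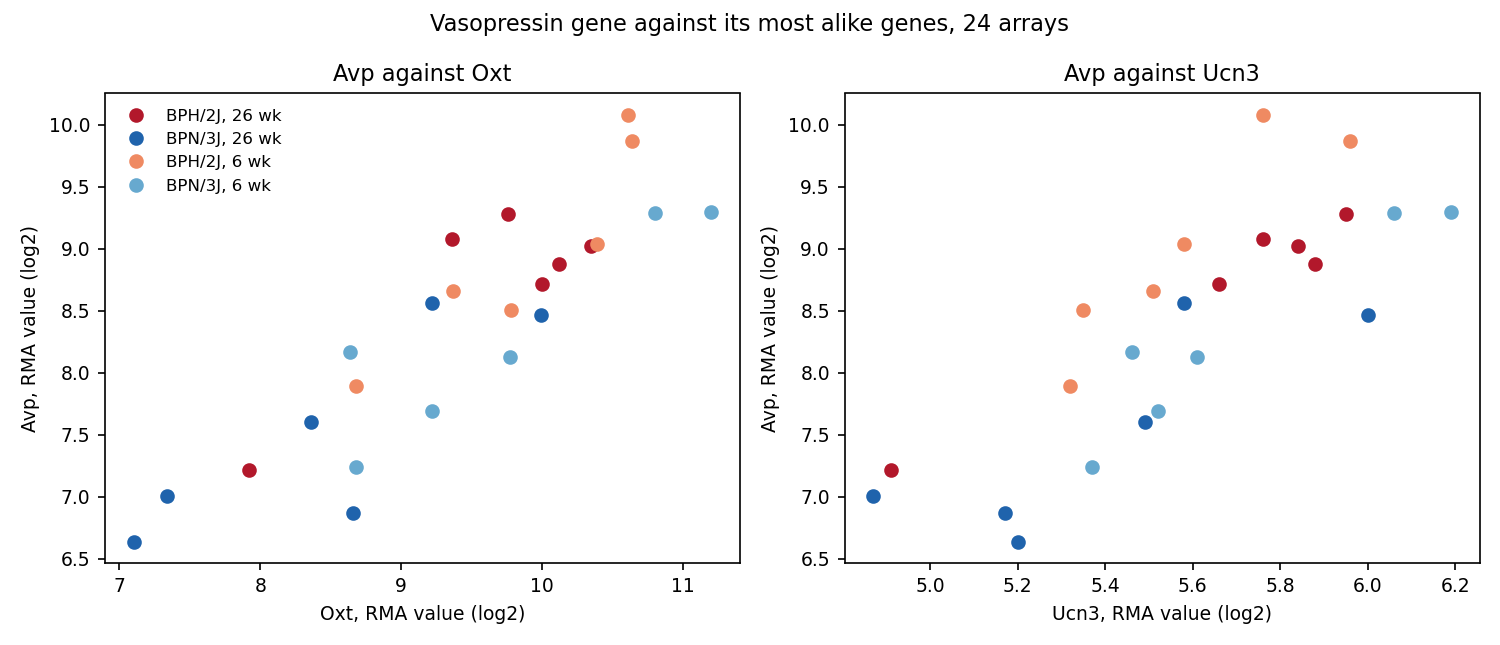
Avp against Oxt and Avp against Ucn3, both axes in RMA log2 values, 1 point per mouse and 24 arrays in each panel, coloured by group. In both panels the arrays rise together, with r = 0.886 for Oxt and r = 0.820 for Ucn3, and 26-week BPH/2J replicate 3 lies at the low end with 26-week BPN/3J mice.

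Next to Oxt, the genes most like Avp over the 24 log2 values were Trh (r = 0.856), which encodes thyrotropin-releasing hormone, Ucn3 (0.820), the peptide urocortin 3, Zcchc12 (0.781), a zinc finger protein, and Krtap7-1 (0.775), a keratin-associated protein. With group means removed, the order was Ucn3 (r = 0.901), Oxt (0.872), Qrfpr (0.822), a neuropeptide receptor, Trh (0.797) and Hspa5 (0.758), a chaperone of the endoplasmic reticulum. For Oxt, after Avp, they were Ucn3 (r = 0.866), Syt16 (0.796), of the synaptotagmin family, Aldh3b2 (0.735), an aldehyde dehydrogenase, and Htr7 (0.727), a serotonin receptor. With group means removed, Oxt was most like Ucn3 (r = 0.891), Avp (0.872), Syt16 (0.782), Npffr1 (0.754), a receptor of neuropeptide FF, and Qrfpr (0.737). Ucn3 thus stood among the first 3 for both peptides by both measures. Ucn3 was dim, with group means of 5.39 to 5.70. It exceeded the median of unnamed probe sets on 23 of 24 arrays and lay below it in 26-week BPN/3J replicate 6 (5.17 against 5.25). Its own strain difference was 0.28 ± 0.18 at 26 weeks (limma adjusted p = 0.58) and -0.12 ± 0.18 at 6 weeks (limma adjusted p = 0.827).

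Trh passed the strain test for the average over both ages and for neither age alone. It was at 8.85 ± 0.45 in 26-week BPH/2J and 7.68 ± 1.16 in 26-week BPN/3J, and at 9.34 ± 0.66 in 6-week BPH/2J and 8.07 ± 0.71 in 6-week BPN/3J (SD, n = 6 each). Its difference was 1.17 ± 0.41 at 26 weeks (SE, limma adjusted p = 0.158), 1.27 ± 0.41 at 6 weeks (limma adjusted p = 0.0562) and 1.22 ± 0.29 averaged over both ages (limma adjusted p = 0.00667). With the hypothalamus marker mean as a covariate, a mean that includes Trh itself, the average stood at -0.24 (limma adjusted p = 0.722). The difference between the strain effects of Trh and Avp was not tested.

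**Figure D3:**
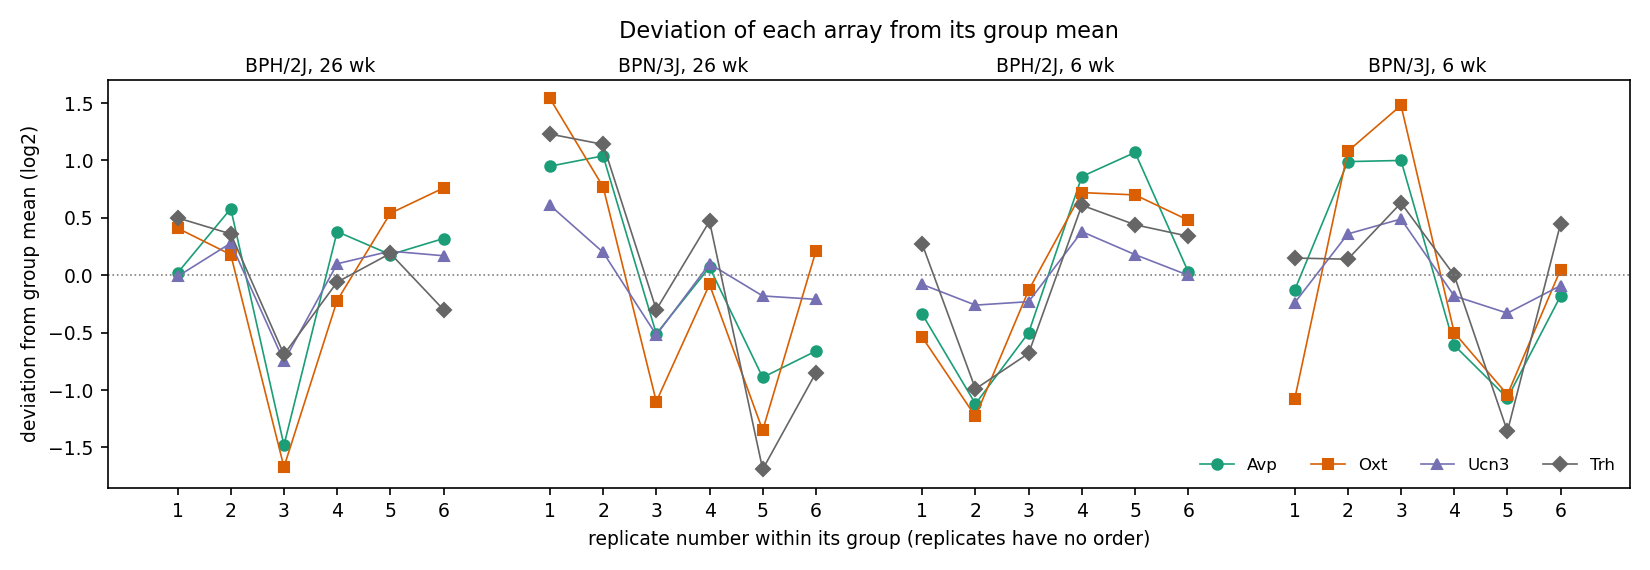
Deviation of Avp, Oxt, Ucn3 and Trh from the mean of their group (log2), for each replicate number in each of the 4 groups; lines only join the points of a gene, since replicates have no order. The 4 genes sit together on the low side in 26-week BPH/2J replicate 3 and in 6-week BPH/2J replicate 2, and together on the high side in 26-week BPN/3J replicates 1 and 2.

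The mice of the 26-week groups fell into 2 sets of arrays by their first principal component, which carried 41.9% of the variance of deviations from the group means. Replicates 5 and 6 of both strains formed a set of 4 arrays and the other 8 arrays formed the rest, and the labels used here give no batch. In the set of 4, Avp averaged 8.95 in BPH/2J and 6.75 in BPN/3J (n = 2 each), a difference of 2.20. In the set of 8, it averaged 8.57 in BPH/2J and 7.91 in BPN/3J (n = 4 each), a difference of 0.66. For Oxt the differences were 2.36 in the set of 4 and 0.53 in the set of 8. The direction was the same in both sets and the difference was larger in the set of 4, and the difference between the sets was not tested. With a term for these sets the 26-week differences kept their values and did not pass (limma adjusted p = 0.133 for Avp and 0.258 for Oxt), and the average over both ages in Avp passed (0.94, limma adjusted p = 0.0415).

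Genes that mark the hypothalamus and its neighbours moved with the strains at 6 weeks. Of the 14 measured hypothalamus genes, 10 were called higher and 0 lower in 6-week BPH/2J, with a median difference of 0.87 against 0.01 over all genes tested. Of all genes, 2.99% were called higher and 4.42% lower at 6 weeks. Their mean per array was 8.27 (7.71 to 8.45) in 6-week BPH/2J and 7.39 (6.98 to 7.64) in 6-week BPN/3J. Of 17 thalamus genes, 13 were called lower and 0 higher, and their mean was 8.83 (8.22 to 9.66) in 6-week BPH/2J and 9.73 (9.59 to 9.94) in 6-week BPN/3J. At 26 weeks the hypothalamus mean was 7.66 (7.51 to 7.92) in BPH/2J and 7.39 (7.02 to 7.81) in BPN/3J, and the thalamus mean was 9.72 and 9.71. At that age 2 hypothalamus genes were called higher, Gal and Hcrt, and 1 thalamus gene lower, Tnnt1.

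With the hypothalamus mean of each array as a covariate, a fit added after the data were seen, the strain difference in Avp was 0.64 ± 0.36 at 26 weeks (limma adjusted p = 0.461) and -1.02 ± 0.55 at 6 weeks (limma adjusted p = 0.51). That in Oxt was 0.66 ± 0.49 at 26 weeks (limma adjusted p = 0.603) and -1.36 ± 0.74 at 6 weeks (limma adjusted p = 0.511). Trh and Gal are among the 14 genes of that mean, and Avp and Oxt are not. The sign at 6 weeks turned with this covariate and the sign at 26 weeks did not. With the thalamus mean as the covariate Avp stood at 1.17 and 0.94 and Oxt at 1.14 and 0.66 at 26 and 6 weeks. Over deviations from group means, the hypothalamus mean had r = 0.626 with Avp, 0.473 with Oxt, 0.682 with Avpr1a and 0.322 with Oxtr across the 24 arrays.

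The counts of the remaining lists stand beside 4.42% of all genes called lower at 6 weeks and 4.14% for the average. Of these lists, 6 of 11 oligodendrocyte genes were called lower in 6-week BPH/2J, with Trf, the transferrin gene, at -0.77 ± 0.13 (limma adjusted p = 0.000332), Fa2h, a myelin lipid hydroxylase, at -0.74 ± 0.15 and Opalin, a myelin protein, at -0.75 ± 0.18. Of 8 cortex and hippocampus genes, 1 was called lower at 6 weeks, the glutamate transporter gene Slc17a7 at -1.62 ± 0.30 (limma adjusted p = 0.00105). Of 6 striatum genes, 1 was called lower at 6 weeks, the transcription factor gene Foxp1 at -0.51 ± 0.13 (limma adjusted p = 0.0191, and 0.0593 without 6-week BPH/2J replicate 1). Of 11 choroid plexus genes, 1 was called lower for the average over both ages, the homeobox gene Otx2 at -0.54 ± 0.15 (limma adjusted p = 0.0203). Of 9 pituitary genes, 0 were called in any strain comparison, with 3 at an unadjusted p under 0.05 at 6 weeks and 0 at 26 weeks, and 6 of the 9 were not above the median of unnamed probe sets on every array. In the hypothalamus list the named genes were Gal, with its values below, Nkx2-1, a transcription factor of the region, at 0.66 ± 0.10 at 6 weeks (limma adjusted p = 0.000139), and Hcrt, the orexin gene, at 1.09 ± 0.21 for the average (limma adjusted p = 0.000799). In the thalamus list they were Tnnt1, a troponin gene, at -1.18 ± 0.10 for the average (limma adjusted p = 2.5e-09), Rora, a nuclear receptor gene, at -1.13 ± 0.17 at 6 weeks, and Plekhg1 at -1.62 ± 0.26 at 6 weeks. The naming rule took up to 3 called genes per list, each in the strain comparison with its smallest p. Of the 17 calls it picked at 6 weeks, 2 also passed with the thalamus covariate, Apln and Trf, and 0 with the hypothalamus covariate. Of the 8 it picked for the average over both ages, 6 passed with the thalamus covariate and 4 with the hypothalamus covariate. The 1 it picked at 26 weeks, Dbp, passed with each. Further calls named in the text, such as Pdyn, Tac1 and Cck at 6 weeks and Gal and Chga at 26 weeks, are not in these counts. Over all genes, the 1479 calls at 6 weeks became 173 with the thalamus covariate and 154 with the hypothalamus covariate. The 1555 calls for the average became 722 and 437. Nkx2-1, Gal, Hcrt and Trh are in the hypothalamus mean, and Tnnt1, Rora, Plekhg1 and Rgs16 in the thalamus mean. For these genes the covariate takes up part of their own difference. Since the hypothalamus means of the strains did not overlap at 6 weeks, a 6-week call lost with that covariate cannot be assigned to strain or tissue.

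Avpr1a, the V1a receptor gene, had most 6-week BPH/2J mice above most 6-week BPN/3J mice, a difference that did not pass after adjustment over all genes. In 6-week BPH/2J the lowest, median and highest arrays were at 6.98, 7.17 and 7.29, and in 6-week BPN/3J at 6.57, 6.81 and 7.07. The 2 groups overlapped between 6.98 and 7.07. In 26-week BPH/2J the values were 6.21, 7.01 and 7.27, and in 26-week BPN/3J 6.51, 6.98 and 7.44, with near equal medians. The 6-week strain difference was 0.35 ± 0.15 (SE, limma adjusted p = 0.177, exact permutation p = 0.00433) and the 26-week difference was -0.08 ± 0.15 (limma adjusted p = 0.911, exact permutation p = 0.732).

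The exact test of Avpr1a uses only the 2 groups of 6 weeks, whose SDs were 0.12 in BPH/2J and 0.18 in BPN/3J, against 0.39 in 26-week BPH/2J and 0.32 in 26-week BPN/3J. A fit with only the 6-week groups gave the same 0.35 with limma adjusted p = 0.0139, and array weights gave 0.37 with limma adjusted p = 0.0124. The difference between the ages in the strain effect was -0.43 ± 0.21 (limma adjusted p = 0.459), in a comparison that called 0.00502% of all genes higher and 0.0251% lower. With the hypothalamus mean as a covariate, the 6-week value was -0.28 ± 0.18 (limma adjusted p = 0.589). The group means were 6.93 ± 0.39 in 26-week BPH/2J, 7.01 ± 0.32 in 26-week BPN/3J, 7.16 ± 0.12 in 6-week BPH/2J and 6.81 ± 0.18 in 6-week BPN/3J (SD, n = 6 each), so the 2 adult groups lay between the 2 young ones.

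The genes most like Avpr1a over the 24 log2 values were Scg2 (r = 0.909), the granule protein secretogranin 2, 1700001L19Rik (0.869), Mthfd2l (0.868), an enzyme of folate metabolism, Hcrtr2 (0.856), an orexin receptor, and Fam20b (0.854), a kinase of proteoglycan synthesis. With group means removed they were Scg2 (0.925), Asl (0.920), an enzyme of the urea cycle, Mthfd2l (0.901), Nsg1 (0.881), a neuronal endosome protein, and Ankrd55 (0.867). Scg2 had a strain difference of 0.05 ± 0.09 at 26 weeks (limma adjusted p = 0.917) and 0.29 ± 0.09 at 6 weeks (limma adjusted p = 0.0578). Avpr1a had little in common with the peptide genes from mouse to mouse, with r = 0.275 for Avp and 0.104 for Oxt over deviations from group means.

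Oxtr, the oxytocin receptor gene, was the only member with an age difference that passed, in BPH/2J and averaged over both strains. Oxt had larger falls with wider errors that did not pass, -1.28 ± 0.50 in BPN/3J and -0.80 ± 0.35 averaged over both strains. Whether the 2 genes differ in their age effect was not tested. In 26-week BPH/2J the lowest, median and highest arrays were at 6.17, 6.53 and 6.68, and in 6-week BPH/2J at 6.61, 6.81 and 6.93. In 26-week BPN/3J they were at 6.31, 6.42 and 6.66, and in 6-week BPN/3J at 6.52, 6.63 and 6.71. The age groups overlapped in both strains, between 6.61 and 6.68 in BPH/2J and between 6.52 and 6.66 in BPN/3J.

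The age difference in Oxtr, 26 minus 6 weeks, was -0.31 ± 0.08 in BPH/2J (SE, limma adjusted p = 0.0145, exact permutation p = 0.0195), a fold of 0.81. In BPN/3J it was -0.19 ± 0.08 (limma adjusted p = 0.143, exact permutation p = 0.0173). Averaged over both strains it was -0.25 ± 0.06 (limma adjusted p = 0.00332, exact permutation p = 0.000337), a fold of 0.84. The age effects of the 2 strains differed by -0.12 ± 0.12 (limma adjusted p = 0.797), so a difference in age effect between the strains was not shown. Age moved many genes: 8.23% of all genes were called higher and 8.64% lower at 26 weeks in BPH/2J, 4.6% and 7.66% in BPN/3J, and 13.7% and 17.7% averaged over both strains. Of the 4 members, 1 was called lower in BPH/2J, 0 in BPN/3J and 1 averaged over both strains, with Oxtr the gene in each case and 0 called higher.

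The fall of Oxtr in BPH/2J passed in each of the 12 fits that left out 1 array (-0.35 to -0.24). It did not pass in the fit of only the 2 BPH/2J groups (-0.31, limma adjusted p = 0.0526), with the thalamus mean as a covariate (-0.25, limma adjusted p = 0.492) or with the hypothalamus mean (-0.20, limma adjusted p = 0.241). Between the ages in BPH/2J, 8 of 14 hypothalamus genes were called lower and 13 of 17 thalamus genes higher at 26 weeks. In BPN/3J, 1 hypothalamus gene was called lower and 0 thalamus genes were called in either direction.

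Between the strains, Oxtr differed by 0.05 ± 0.08 at 26 weeks (limma adjusted p = 0.902, exact permutation p = 0.632) and by 0.17 ± 0.08 at 6 weeks (limma adjusted p = 0.297, exact permutation p = 0.0281). The group means were 6.49 ± 0.21 in 26-week BPH/2J, 6.44 ± 0.12 in 26-week BPN/3J, 6.79 ± 0.14 in 6-week BPH/2J and 6.63 ± 0.07 in 6-week BPN/3J (SD, n = 6 each), with both young groups above both adult ones. The genes most like Oxtr over the 24 log2 values were Tmem132e (r = 0.914), a membrane protein, Hrh1 (0.899), the H1 histamine receptor, Fbll1 (0.879), a fibrillarin-like protein, Sema4a (0.876), a semaphorin, and Zfp275 (0.862), a zinc finger protein. With group means removed they were Tmem132e (0.832), Hrh1 (0.814), Onecut3 (0.814), a transcription factor, Ppp1r14d (0.781), a phosphatase inhibitor, and H2-Q2 (0.779), of the major histocompatibility complex. Over deviations from group means, Oxtr had r = 0.565 with Oxt and 0.429 with Avp, and the value for Avp was 0.174 without the 2 arrays farthest from the median of Avp.

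**Figure D4:**
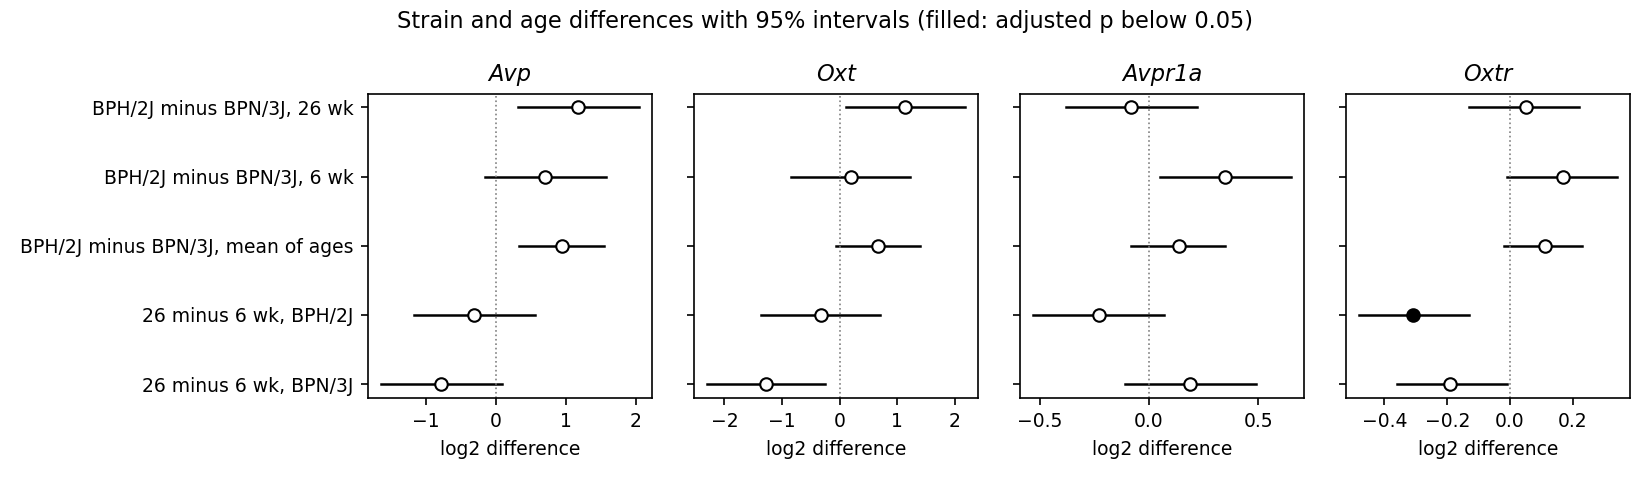
Strain differences (BPH/2J minus BPN/3J) at 26 weeks, at 6 weeks and averaged, and age differences (26 minus 6 weeks) in BPH/2J and BPN/3J, for each of the 4 genes on its own log2 axis, as limma estimates with 95% intervals. The filled point, Oxtr between the ages in BPH/2J at -0.31, is the one difference with an adjusted p below 0.05.

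The age differences of the peptide genes did not pass. Avp was at -0.31 ± 0.42 in BPH/2J (limma adjusted p = 0.652) and -0.78 ± 0.42 in BPN/3J (limma adjusted p = 0.218). Oxt was at -0.33 ± 0.50 in BPH/2J (limma adjusted p = 0.688) and -1.28 ± 0.50 in BPN/3J (limma adjusted p = 0.0897, exact permutation p = 0.0736), a fold of 0.41. Averaged over both strains, Oxt was at -0.80 ± 0.35 (limma adjusted p = 0.0847), and this passed without 26-week BPN/3J replicate 1 (-0.96, limma adjusted p = 0.0376) and without 6-week BPH/2J replicate 2 (-0.93, limma adjusted p = 0.0458). Avpr1a was at -0.23 ± 0.15 in BPH/2J (limma adjusted p = 0.283) and 0.19 ± 0.15 in BPN/3J (limma adjusted p = 0.39). The strain effect at 26 weeks minus that at 6 weeks was 0.47 ± 0.59 for Avp and 0.95 ± 0.71 for Oxt (limma adjusted p = 0.861 and 0.694). The strain and age comparisons share groups, so they are not independent of each other.

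The other 2 vasopressin receptor genes were near the level of unnamed probe sets. Avpr1b, the V1b receptor of pituitary corticotrophs, averaged 4.79 ± 0.26 in 26-week BPH/2J, 4.82 ± 0.16 in 26-week BPN/3J, 4.95 ± 0.15 in 6-week BPH/2J and 4.89 ± 0.16 in 6-week BPN/3J (SD, n = 6 each). Avpr2, the V2 receptor of the kidney, averaged 4.83 ± 0.22, 4.77 ± 0.12, 4.87 ± 0.16 and 5.00 ± 0.15 in the same groups. They exceeded the array's median of unnamed probe sets on 17 and 19 of 24 arrays, and their strain differences lay between -0.12 and 0.07 with limma adjusted p of 0.576 or more.

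Of the 6 genes that flank the Avp and Oxt pair, taken by position as the nearest 3 tested genes on each side, 1 passed a strain test. Over all genes tested, 1.32% were called higher and 1.34% lower at 26 weeks. These shares were 2.99% and 4.42% at 6 weeks, and 3.66% and 4.14% for the average. Mrps26, which encodes a protein of the mitochondrial ribosome and was the nearest tested gene on the Oxt side, differed by 0.45 ± 0.09 at 26 weeks (limma adjusted p = 0.00246), 0.24 ± 0.09 at 6 weeks (limma adjusted p = 0.106) and 0.34 ± 0.06 averaged over both ages (limma adjusted p = 0.000469). Lzts3, a postsynaptic protein gene and the nearest on the Avp side, was at 0.17 ± 0.06 for the average (limma adjusted p = 0.0747), and the averages of Ptpra, 4930473A02Rik, Ddrgk1 and Itpa were between -0.05 and 0.13.

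Genes that process the peptides and build the dense-core granule had 3 of 12 measured members called higher and 0 lower in 6-week BPH/2J, and 1 and 0 at 26 weeks, with medians of 0.16 at 6 weeks and 0.00 at 26 weeks, against 0.01 over all genes at either age. Of all genes, 2.99% were called higher and 4.42% lower at 6 weeks, and 1.32% and 1.34% at 26 weeks. Chga, the granule protein chromogranin A, was called at both ages, with 0.50 ± 0.09 at 26 weeks and 0.54 ± 0.09 at 6 weeks, and 0.52 ± 0.06 for the average (limma adjusted p = 8.03e-07). Its means were 10.30 ± 0.21 in 26-week BPH/2J and 9.80 ± 0.19 in 26-week BPN/3J, and 10.62 ± 0.08 in 6-week BPH/2J and 10.08 ± 0.05 in 6-week BPN/3J (SD, n = 6 each). Chga also passed for the average with the hypothalamus covariate (0.54, limma adjusted p = 0.00105). Pam, the enzyme that amidates the C-terminus of both peptides, was higher by 0.39 ± 0.08 at 6 weeks (limma adjusted p = 0.00341), and stood at 0.02 with that covariate. Vgf, a granule protein, was higher by 0.21 ± 0.06 for the average (limma adjusted p = 0.0226), and did not pass with the hypothalamus covariate (0.18, limma adjusted p = 0.406) or the thalamus covariate (0.20, limma adjusted p = 0.169).

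Between the ages, 5 of these 12 genes were called lower at 26 weeks in BPH/2J and 3 in BPN/3J, with 0 higher in either strain, where 8.64% and 7.66% of all genes were called lower. In the same BPH/2J comparison 8 of 14 hypothalamus genes were called lower and 13 of 17 thalamus genes higher. Pam was at -0.49 ± 0.08 and Pcsk1, a prohormone convertase, at -0.54 ± 0.10 in BPH/2J, and Pcsk1n, its inhibitor, was at -0.66 ± 0.17 in BPH/2J and -0.59 ± 0.17 in BPN/3J. Chga and Vgf were called lower in both strains.

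Among 12 peptides known from vasopressin or oxytocin neurons, 3 were called higher and 2 lower in 6-week BPH/2J, and 1 higher and 0 lower at 26 weeks, with medians of 0.36 and 0.04. The shares over all genes were 2.99% higher and 4.42% lower at 6 weeks, and 1.32% and 1.34% at 26 weeks. Gal, the galanin gene, was higher at both ages, with means of 7.59 ± 0.29 in 26-week BPH/2J and 6.64 ± 0.51 in 26-week BPN/3J, and 8.38 ± 0.19 in 6-week BPH/2J and 6.82 ± 0.31 in 6-week BPN/3J (SD, n = 6 each). Its difference for the average was 1.26 ± 0.13 (limma adjusted p = 7.65e-08). Apln, the apelin gene, was lower, at -0.55 ± 0.07, at 6 weeks (limma adjusted p = 2.09e-05). Pdyn and Tac1, which encode dynorphin and substance P precursors, were higher by 0.49 ± 0.14 and 0.55 ± 0.17 at 6 weeks, and Cck, the cholecystokinin gene, was lower at -0.84 ± 0.20. Between the ages, 5 members were lower and 1 higher at 26 weeks in BPH/2J, where 8.64% of all genes were called lower and 8.23% higher. Cartpt, a satiety peptide gene, was lower in both strains (-0.95 ± 0.15 in BPH/2J and -0.77 ± 0.15 in BPN/3J).

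**Figure D5:**
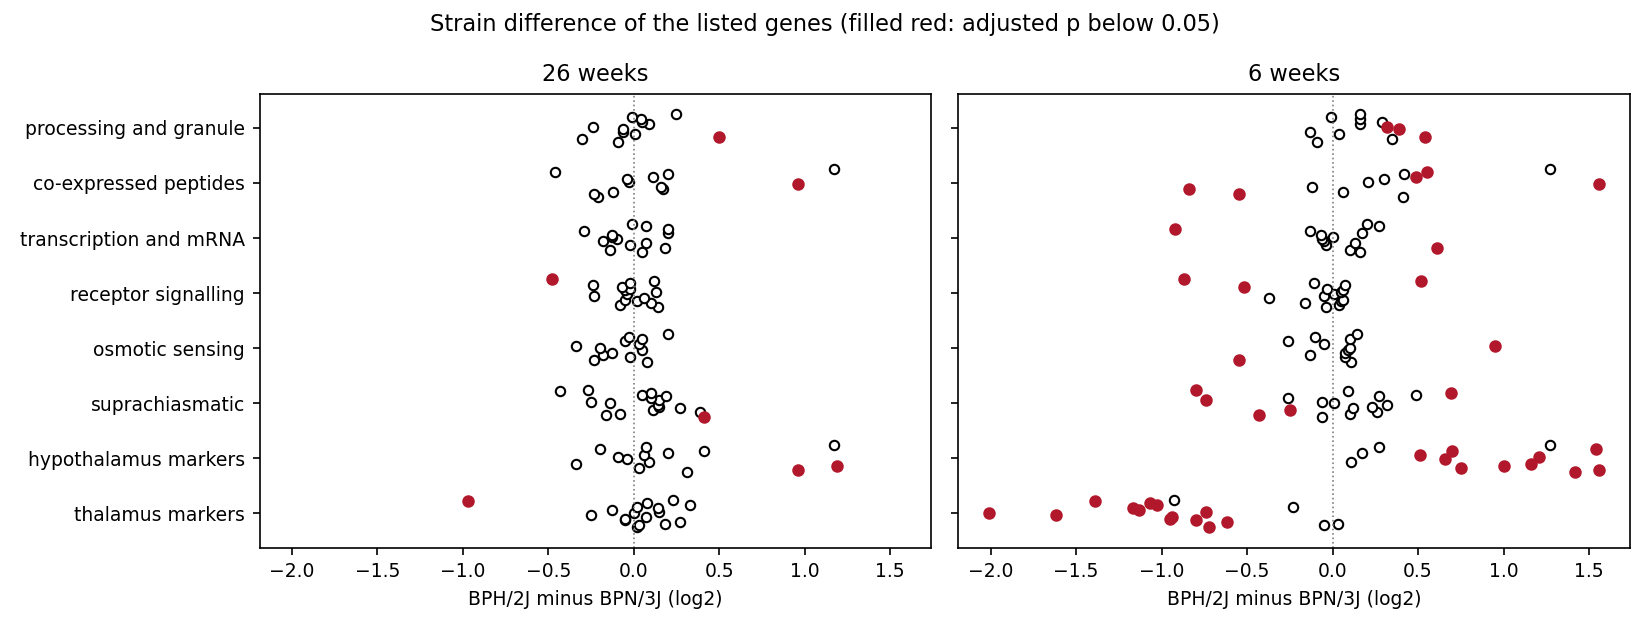
BPH/2J minus BPN/3J (log2, limma) of each measured gene of the listed groups at 26 weeks and at 6 weeks, 1 circle per gene, filled red where the adjusted p was below 0.05. The medians of the hypothalamus and thalamus genes lie on opposite sides of 0 at 6 weeks (0.87 and -0.94). At 26 weeks both medians are near 0 (0.08 and 0.03). Single genes lie far from 0 at 26 weeks, such as Hcrt (1.19), Trh (1.17), Gal (0.96) and Tnnt1 (-0.97).

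Of 14 regulators of nonapeptide transcription and mRNA, 1 was called higher and 1 lower at 6 weeks, and 0 at 26 weeks by limma (2 at an unadjusted p under 0.05), with medians of 0.05 and -0.01. Over all genes, 2.99% were called higher and 4.42% lower at 6 weeks, and 1.32% and 1.34% at 26 weeks. Cited1, a transcriptional coactivator, was higher by 0.61 ± 0.12 (limma adjusted p = 0.00202), but stood at 0.01 with the hypothalamus covariate (limma adjusted p = 0.981) and 0.68 with the thalamus covariate (limma adjusted p = 0.0938). Rasd1, a small GTPase induced by steroid hormones, was lower at -0.92 ± 0.20 (limma adjusted p = 0.00459). Rasd1 stood at -0.51 with the hypothalamus covariate and at 0.14 with the thalamus covariate. Sim1, Otp, Pou3f2 and Arnt2, transcription factors needed to form the magnocellular neurons, were among the members not called between the strains. In BPH/2J Sim1 was called lower at 26 weeks (-0.42 ± 0.14), as was Arnt2 (-0.28 ± 0.07), and Rasd1 was called higher (0.91 ± 0.20).

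Of 16 measured genes of the Gq and phospholipase C path that both receptors use, 1 was called higher and 2 lower in 6-week BPH/2J, and 0 higher and 1 lower at 26 weeks, with medians of -0.01 and -0.03. For all genes these shares were 2.99% and 4.42% at 6 weeks, and 1.32% and 1.34% at 26 weeks. Rgs4, which shortens Gq signals, was at 11.03 ± 0.11 in 26-week BPH/2J and 11.51 ± 0.30 in 26-week BPN/3J, and at 10.65 ± 0.33 in 6-week BPH/2J and 11.52 ± 0.16 in 6-week BPN/3J (SD, n = 6 each). It was lower for the average at -0.68 ± 0.09 (limma adjusted p = 1.16e-05), and with the hypothalamus covariate at -0.56 (limma adjusted p = 0.036). Plcb4, a phospholipase C, was lower at -0.52 ± 0.11 at 6 weeks (limma adjusted p = 0.00239) and stood at -0.01 with the thalamus covariate. Rgs2, a relative of Rgs4, was higher by 0.52 ± 0.15 at 6 weeks (limma adjusted p = 0.0351), a call lost in 9 of the 12 fits that left out 1 array (highest adjusted p = 0.0936).

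The next 2 lists stand beside 2.99% of all genes called higher and 4.42% lower at 6 weeks, and 1.32% and 1.34% at 26 weeks. Of 13 genes of osmotic and volume sensing, 1 was called higher and 1 lower at 6 weeks, and 0 at 26 weeks by limma (2 at an unadjusted p under 0.05), with medians of 0.07 and -0.03. The higher gene was Scn7a, the sodium sensor of the circumventricular organs, at 0.95 ± 0.25 (limma adjusted p = 0.0171). It did not pass without 6-week BPH/2J replicate 1, 3 or 5, with adjusted p up to 0.0614. It stood at 0.03 with the hypothalamus covariate (limma adjusted p = 0.982) and at 0.55 with the thalamus covariate (limma adjusted p = 0.821). The lower gene was Apln, given above. Of 17 genes of the suprachiasmatic vasopressin cells and their partners, 1 was higher and 4 lower at 6 weeks, and 1 higher and 0 lower at 26 weeks, with medians of 0.09 and 0.10. For the average over both ages 4 were called higher and 1 lower, with a median of 0.01, where 3.66% and 4.14% of all genes were called. Dbp, a clock output transcription factor, was higher at 26 weeks, with 9.81 ± 0.13 in BPH/2J and 9.40 ± 0.12 in BPN/3J (SD, n = 6 each), a difference of 0.41 ± 0.07 (limma adjusted p = 0.000648). At 6 weeks Dbp was at 9.54 ± 0.15 in BPH/2J and 9.60 ± 0.04 in BPN/3J (SD, n = 6 each) and was not called. Vipr2, the receptor of vasoactive intestinal peptide, was lower at -0.80 ± 0.15 at 6 weeks (limma adjusted p = 0.00124), and Rgs16, a G protein regulator, was lower at -0.74 ± 0.20 (limma adjusted p = 0.021, and up to 0.0737 without 6-week BPH/2J replicate 1 or 3 or 6-week BPN/3J replicate 5). Rgs16 is also a thalamus list gene, and with the thalamus covariate Vipr2 stood at -0.12 and Rgs16 at 0.23.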

How the data were processed

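The authors deposited log2 values of 34760 probe sets on 24 arrays; the submitters' processing notes name RMA and limma, without versions, and the sources give no annotation release or genome build. RMA equalises the distributions of the arrays, so a gene's difference is measured against the rest of its array. An array has no read depth, and precision rests on the number of mice. Of the probe sets, 21640 had 1 symbol in the platform annotation, 1321 several and 11799 none. Per gene the probe set with the highest mean was kept, giving 19937 genes.

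A mean per group was fitted over all 24 arrays (limma 3.58.1, R 4.3.3, 20 residual degrees of freedom), with p-values adjusted by Benjamini-Hochberg over all genes and a threshold of 0.05. Two-sided exact permutation tests over mice (30 in all, for the 4 genes and the Avp to Oxt difference) are given unadjusted, although an adjustment had been planned. The members and gene lists were chosen with earlier results of these data known. Named genes are the 4 members, Avpr1b and Avpr2, the 5 genes most like each member by 2 measures, and up to 3 called genes per list with the smallest p in a strain comparison. Genes named for age differences, the further called peptides and the flanking genes fall outside that rule and were chosen after their values were seen. Same-numbered 26-week mice of the 2 strains deviated together (r of 0.13 to 0.44 over genes), those of the other group pairs not throughout. For some 26-week mice another number was the closest. The fits were checked on simulated data.

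Alternatives were the mean of all probe sets, all probe sets in the fit, dim genes left out, 2 array scalings, only the groups compared, array weights, another prior, a replicate block, each array left out and a thalamus covariate. The hypothalamus covariate, the 26-week array sets, the Avp to Oxt difference, the sign-flip test over 26-week pairs and the average over strains were added after the data were seen.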

Additional observations from a re-analysis of the deposited data

Results flagged for a closer look

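Among the 6 mice of 26-week BPH/2J, Avp in replicate 3 was at 7.22, far below the other 5 at 8.72 to 9.28, and its gap was 0.729 of the range of the group. The same array had the lowest Oxt of its group, 7.92. Among the 6 mice of 6-week BPN/3J, Avp minus Oxt in replicate 1 was at -0.47, far above the other 5 at -1.90 to -1.44, and its gap was 0.678 of the range. Chance flags about 1 in 20 such groups.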

How the results depend on the processing

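Of the 28 comparisons of the 4 genes, only those given here crossed the threshold or changed sign. The strain average in Avp passed with dim genes left out (0.94, limma adjusted p = 0.0443), arrays centred on medians (0.94, 0.0496), quantile normalisation (0.95, 0.0438), array weights (0.91, 0.0476) and the 26-week sets (0.94, 0.0415), and left-out arrays gave 0.83 to 1.09 for it and 1.00 to 1.47 for the 26-week difference. Avpr1a at 6 weeks passed with only the groups compared (0.35, 0.0139) and array weights (0.37, 0.0124), and between the ages in BPN/3J with the sets (0.35, 0.031), as did Oxtr (-0.23, 0.04). Oxtr did not pass in BPH/2J with only the groups compared (-0.31) or the thalamus (-0.25) or hypothalamus (-0.20) covariate, nor for the age average with the thalamus covariate (-0.22, 0.0611). The hypothalamus covariate turned Avp to -1.02 (6 weeks), -0.19 (strain average), 0.90 (age, BPH/2J) and 0.07 (age average), Oxt to -1.36, -0.35 and 0.76 in the first 3, Avpr1a to -0.28, -0.28, 0.21 and 0.21 in these 4 and 0.01 (interaction), Oxtr at 26 weeks to 0, Rgs2 to -0.13 and Trh to -0.24. The thalamus covariate turned Rasd1 to 0.14 and Rgs16 to 0.23. The age average of Avpr1a, -0.02, turned to 0.08 with array weights, 0.08 with the thalamus covariate and 0.14 with the sets. Left-out arrays gave -0.02 to 0.49 for Oxt at 6 weeks, -0.18 to 0.07 for Avpr1a at 26 weeks, -0.57 to 0.01 for Oxt by age in BPH/2J, and -0.96 to -0.64 for Oxt and -0.06 to 0.05 for Avpr1a in the age average. Of the values of named list genes, 35 under other alternatives and 16 with an array left out no longer passed. The cause was not tested.

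Counts of called genes moved as follows. At 6 weeks, 1479 became 2322 (only the groups compared), 3725 (array weights), 173 (thalamus) and 154 (hypothalamus). At 26 weeks, 532 became 248 (only the groups compared) and 881 (sets). The strain average, 1555, became 2502 (weights), 722 (thalamus) and 437 (hypothalamus). The interaction, 6, became 0 (all probe sets), 23 (dim genes left out), 34 (quantile), 683 (weights), 31 (prior), 0 (thalamus), 251 (sets) and 0 (hypothalamus), and 49 with the replicate block, which changed no call of the 4 genes. By age in BPH/2J, 3362 became 7475 (weights), 8 (thalamus) and 7479 (sets). In BPN/3J, 2445 became 6416 (weights) and 7325 (sets). The age average, 6261, became 9758 (weights), 2166 (thalamus) and 9668 (sets). Left-out arrays gave 0 to 496 for the interaction, 2138 to 4838 in BPH/2J and 1034 to 4230 in BPN/3J. Dim genes such as Avpr1b and Avpr2 are measured with little signal over background.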
